A study of Caenorhabditis elegans with 2 samples.

Results

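Promoter peaks of BED-1 on the X chromosome were described from chromatin immunoprecipitation with sequencing (ChIP-seq) of whole Caenorhabditis elegans. A peak was counted as a promoter peak when its summit lay from 500 bases upstream to 200 bases downstream of an annotated start of a protein-coding gene and more than 200 bases from any tRNA, snoRNA, snRNA or miRNA gene. The rule was applied to the authors' ranked list from both replicates, and it held for 3253 peaks out of 23255 on the X chromosome and 120637 in all. Of the X promoter peaks, 10 passed an irreproducible discovery rate (IDR) of 0.01, the level behind the authors' final list, and all 10 were in that list. The other 3243 are candidate peaks with a higher IDR in this list, so the list as a whole is a list of ranked positions and not of bound promoters. Of the 3243, 5 are in a further, conservative list of the authors, so passing here is not the same as passing in each list.

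The worms were of strain RW12201, in which CRISPR placed the tags TY1, EGFP and 3xFLAG on bed-1 at its own locus on chromosome V (allele st12201), so the control of expression is that of the gene itself. Both samples were biological replicates of the same group, young adults of 63 hours grown after arrest as starved first-stage larvae, and chromatin was precipitated with an antibody against GFP. Whole animals were used and the labels give no sex, so binding in a few cells and weak binding in many cannot be told apart, and germline and somatic binding cannot be separated. No untagged or input sample was analysed here, and with 1 group no comparison between conditions was possible.

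BED zinc fingers are DNA-binding folds of transcription factors, insulator proteins and domesticated transposases, best studied in Drosophila, where DREF acts at promoters of growth genes and BEAF at domain borders. The X chromosome of C. elegans is under special control: hermaphrodites carry a pair of X chromosomes and males a single copy, and a condensin-containing dosage compensation complex lowers X-linked transcription in hermaphrodite somatic cells. In the germ line the X is largely silent for most of development, and genes with germline roles are under-represented on it. Many C. elegans transcripts are trans-spliced, which removes their original first bases, so that annotated starts can lie downstream of the site where transcription begins.

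The sequences around 6 of the 10 summits are printed here: the 4 of highest signal, and vit-2 and aexr-1 among the weaker sites with a sought motif within 100 bases of the summit. Each covers 60 bases on either side of the summit, on the plus strand of build ce11 (WBcel235), read from the RefSeq genome. Capitals mark GTTCNANNC at T13C5.6, and CGATA and a run of T at aexr-1; these are described with the other motifs. The motifs of W02H3.1, puf-9 and vit-2 lie outside the printed bases, and lin-15B, which also had one, is not printed.
T13C5.6 (chrX:6207852-6207972): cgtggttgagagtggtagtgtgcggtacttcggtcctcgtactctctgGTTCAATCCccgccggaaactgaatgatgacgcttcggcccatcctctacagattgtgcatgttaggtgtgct
W02H3.1 (chrX:11103341-11103461): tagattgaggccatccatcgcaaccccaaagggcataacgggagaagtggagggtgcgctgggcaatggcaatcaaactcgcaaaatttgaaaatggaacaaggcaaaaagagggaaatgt
C03A3.2 (chrX:11262397-11262517): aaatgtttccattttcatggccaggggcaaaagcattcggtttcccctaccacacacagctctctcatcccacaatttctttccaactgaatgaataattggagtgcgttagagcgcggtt
puf-9 (chrX:5841238-5841358): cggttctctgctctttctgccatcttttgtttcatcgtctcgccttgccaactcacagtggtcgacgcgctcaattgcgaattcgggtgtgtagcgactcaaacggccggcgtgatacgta
vit-2 (chrX:5101090-5101210): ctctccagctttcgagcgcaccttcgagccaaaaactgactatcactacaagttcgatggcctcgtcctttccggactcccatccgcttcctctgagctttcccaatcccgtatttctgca
aexr-1 (chrX:6635420-6635540): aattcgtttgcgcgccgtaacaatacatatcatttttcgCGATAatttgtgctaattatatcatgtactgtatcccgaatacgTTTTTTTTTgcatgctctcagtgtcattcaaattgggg
The sequences at hil-3 and sma-9 overlap untranslated regions and are not shown.

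The signal of a peak is the authors' deposited value, on a scale not given in the sources used here, and it is compared only within a list. X promoter peaks had a median signal of 24.3 (interquartile range 15.6 to 34.2), against 23.5 for the 16999 autosomal promoter peaks (15.1 to 33.2) and 23.5 for all ranked peaks. The medians thus differed by less than the spread within each set. At the top of the range there were 3 X promoter peaks with a signal of 80 or more (0.0922% of X promoter peaks), against 55 on the autosomes (0.324%). The strongest X promoter peak had a signal of 124.7, and 9 autosomal promoter peaks exceeded it.

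A smaller share of promoter peaks passed on the X chromosome than on the autosomes as a whole. The 10 passing peaks were 0.307% of the X promoter peaks (exact Clopper-Pearson 95% interval 0.148 to 0.565), whereas 121 autosomal promoter peaks passed (0.712%, 0.591 to 0.850). The background was 0.584% over all ranked peaks and 0.624% over all ranked peaks on the X chromosome. In the remaining ranked peaks the order was the opposite, with 0.675% passing on X (135 of 20002 peaks, 0.566 to 0.798) and 0.545% on the autosomes (438 of 80383, 0.495 to 0.598). The remaining peaks are not all outside promoters. They include peaks in promoter windows but next to small non-coding RNA genes, 32 on X and 145 on the autosomes. Among the autosomes, the passing share of promoter peaks was lowest on V (0.471%, 0.299 to 0.707) and highest on IV (0.970%, 0.665 to 1.37). The X interval overlapped those of I, II, III and V, and not that of IV. The final list is shorter than the set of passing peaks, with 589 peaks against 704 ranked peaks that passed. Of the peaks in the final list, 10 of 121 on X were promoter peaks (8.26%, 4.03 to 14.7), against 120 of 468 on the autosomes (25.6%, 21.7 to 29.9) and from 23.4% on I to 30.5% on IV for single autosomes. The X share of final peaks was below the share on each of the other 5 chromosomes, and its interval overlapped only that of I (14.5 to 34.4). None of these differences was tested. The ranked list before any threshold showed a smaller gap, with 13.99% of X peaks and 17.5% of autosomal peaks at promoters. The intervals cover the counting of peaks only, and peaks of 1 experiment are not independent replicates.

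The lower passing share at X promoters depended on the threshold, and the size of the gap also on the list. At an IDR of 0.05, 100 X promoter peaks passed (3.07%, 2.51 to 3.73) and 479 autosomal ones (2.82%, 2.57 to 3.08), so that X was no longer below the autosomes. At an IDR of 0.001 only the T13C5.6 peak passed on X (0.0307%, 0.000778 to 0.171), against 19 autosomal promoter peaks (0.112%, 0.0673 to 0.174), with overlapping intervals. The lower X percent was thus seen among the peaks of lowest IDR only. In the signal range from 60 to 80, X and the autosomes had like shares of their promoter peaks, 1.51% and 1.45%. Of these, 7 of the 49 X peaks passed (14.3%) and 66 of the 246 autosomal peaks (26.8%), with no interval computed. In the range from 80 to 100 the order was the opposite, with 2 of 2 X peaks and 29 of 32 autosomal peaks passing. The rule also left out 32 X promoter peaks next to small non-coding RNA genes, of which 4 were in the final list. On the autosomes it left out 145, of which 10 were in the final list. With these peaks kept, 14 X promoter peaks passed (0.426%), against 0.764% of the autosomal ones, with no interval computed.

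**Figure D1:**
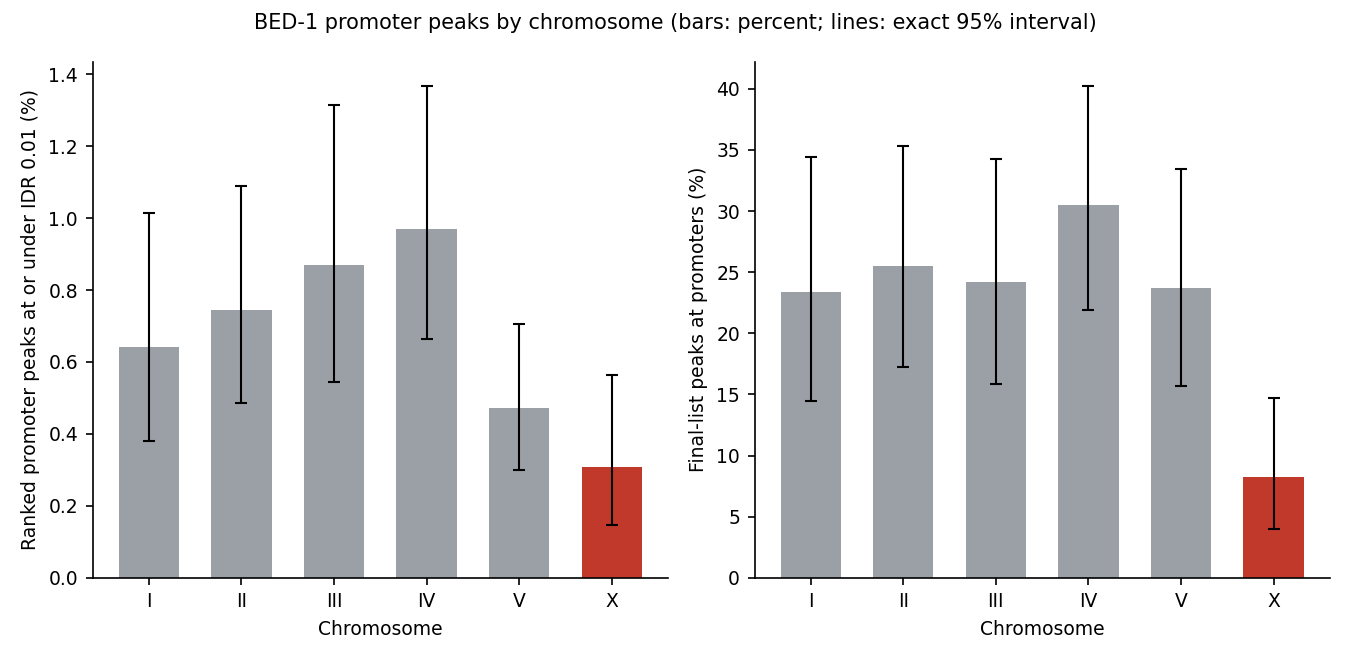
Promoter peaks by chromosome, with bars for percents and lines for exact 95% intervals. Left, the percent of ranked promoter peaks at or under an IDR of 0.01, 0.307% on X (red) and 0.471% to 0.970% on the autosomes (grey); right, the percent of final-list peaks that lie at promoters, 8.26% on X and 23.4% to 30.5% on the autosomes.

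The 10 passing peaks belonged to 10 genes, 0.366% of the 2731 protein-coding genes on X (0.176 to 0.672), against 139 of 17242 autosomal genes (0.806%, 0.678 to 0.951). A ranked promoter peak of any IDR was present at 2097 X-linked genes (76.8%). All 10 peaks were 260 bases wide, as were all 3253 X promoter peaks and 16998 of the 16999 autosomal ones. The signal of the 10 ranged from 64.6 to 124.7 with a median of 79.0, close to the 77.0 of the passing autosomal promoter peaks. The plot of signal against IDR shows that signal did not settle which peaks passed: 28 X promoter peaks had a signal at or above that of the weakest passing peak, and 18 of them did not pass.

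**Figure D2:**
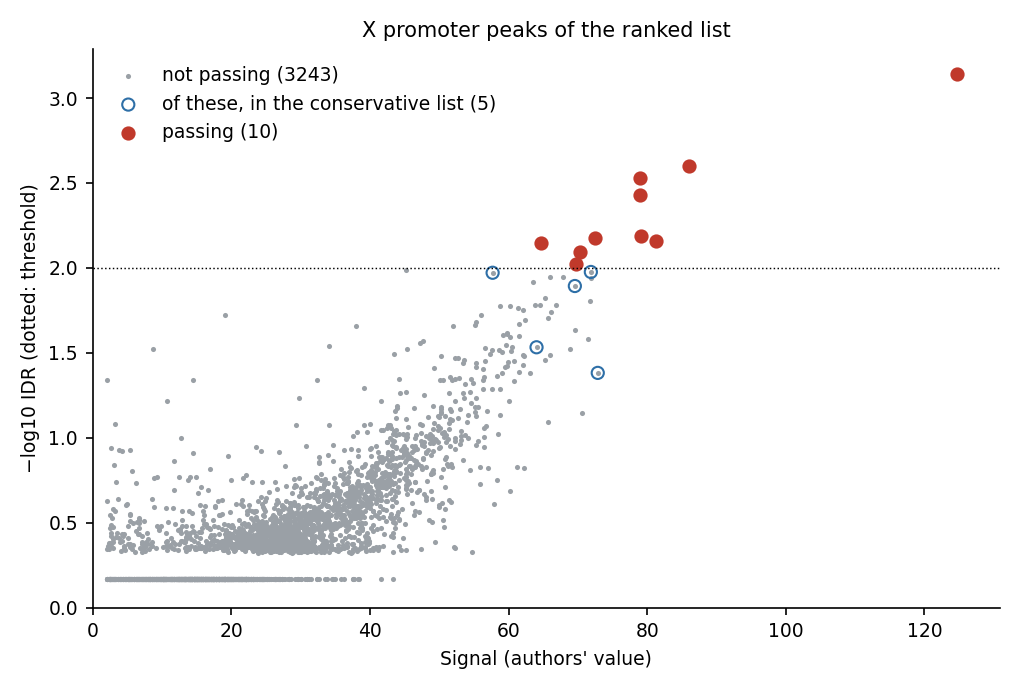
Signal (x axis, the authors' value) against the −log10 of the IDR (y axis) of all 3253 X promoter peaks, with the threshold of 0.01 as a dotted line. The 10 passing peaks (red) have signals of 64.6 to 124.7; circles mark 5 peaks under the line that are in the authors' conservative list.

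The strongest X promoter peak lay upstream of T13C5.6, which encodes a protein with a phosphatidic acid phosphatase type 2 domain. Its summit, at chrX:6207912, was 225 bases upstream of the start, with a signal of 124.7 and an IDR of 0.000727, rank 45 among the 589 final peaks. Its signal in the own ranked lists of replicates 1 and 2 was 48.0 and 68.9. It was the strongest of the 10 sites in both replicates, and the only X promoter peak in a replicate's own final list, that of replicate 2. The summit lay inside C14F11.14, an unclassified non-coding RNA gene of 147 bases on the other strand (chrX:6207835-6207981). Of the words of 31 bases around this summit 88.8% were found once in the genome, and the other 9 sites had wholly unique windows.

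The next in signal was the site of W02H3.1, annotated with an AbiV family domain. Its summit at chrX:11103401 had a signal of 86.01 and an IDR of 0.00252, with 41.6 in replicate 1 and 38.2 in replicate 2. The start it belongs to, 259 bases downstream of it, is that of a short transcript inside the gene, and the summit lies in an intron of the longer transcript, 2059 bases after the outermost start. C03A3.2, which encodes a predicted transmembrane protein, had an intergenic summit at chrX:11262457, 391 bases upstream of the start (signal 81.3, IDR 0.00690). Its replicates were further apart, with 27.2 and 48.8.

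puf-9 encodes a Pumilio-family protein that binds the 3′ ends of mRNAs and represses them. Its summit at chrX:5841298 lay 294 bases upstream (signal 79.2, IDR 0.00649; 35.1 in replicate 1 and 46.5 in replicate 2), where the non-coding RNA genes W06B11.7 and W06B11.9 overlap on opposite strands. A further passing peak, outside the promoter window, lay 1454 bases downstream of the puf-9 start with a signal of 71.9, and puf-9 was the only one of the 10 genes with another passing peak within 2000 bases of the start.

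hil-3 encodes a linker histone. Its summit lay at chrX:8159188 in the 5′ UTR, 19 bases after the start (signal 79.0, IDR 0.00371), and it was stronger in replicate 1, with 45.7, than in replicate 2, with 30.8. lin-15B, a synMuv B gene of chromatin-based repression that acts against vulval fates, had an intergenic summit 367 bases upstream at chrX:15725756 (signal 64.6, IDR 0.00717; 32.2 in replicate 1 and 38.5 in replicate 2). It was the weakest of the passing peaks. sma-9, a Schnurri-type zinc finger of the BMP pathway that sets body size, had a summit in a coding exon at chrX:10777592 (signal 70.3, IDR 0.00809; 38.5 in replicate 1 and 33.2 in replicate 2). That summit lay 310 bases upstream of an internal start and 8310 bases after the outermost start of the gene, so it was a promoter peak only by a shorter transcript.

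kin-20 encodes a casein kinase I of the delta type, a worm relative of the fly kinase Doubletime. Its intergenic summit at chrX:15277908 lay 144 bases upstream (signal 69.7, IDR 0.00942), with like signals of 35.9 and 33.1 in replicates 1 and 2. aexr-1, a G protein-coupled receptor gene, had its summit 207 bases upstream at chrX:6635480 (signal 72.4, IDR 0.00666), inside the non-coding RNA gene C25B8.10. It was the site at which the replicates differed most, with 18.5 in replicate 1 and 45.9 in replicate 2, and its IDR in the ranked list behind the conservative list was 0.0771.

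vit-2 encodes a vitellogenin, a yolk protein made in the intestine of adult hermaphrodites and taken up by oocytes. Its summit lay in a coding exon at chrX:5101150, 108 bases after the start, with a signal of 79.0 and an IDR of 0.00297. The signal was 33.1 in replicate 1 and 50.3 in replicate 2. All 5 X-linked vitellogenin genes had ranked promoter peaks, and vit-2 alone passed. The strongest peak of vit-5 had a signal of 50.3, that of vit-1 35.8, that of vit-3 15.1 and that of vit-4 9.11. The windows at vit-3, vit-4 and vit-5 were unique for 48.2%, 18.2% and 48.8% of their words, so reads of these similar genes may not have been told apart there.

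Across the 10 sites the signal ranged from 18.5 to 48.0 in replicate 1 (median 35.5) and from 30.8 to 68.9 in replicate 2 (median 42.2), and it was higher in replicate 2 at 6 sites. The ranges overlap, and the list signals of different replicates were not scaled to each other here. None of the 10 was in the own final list of replicate 1. Its own ranked list held 1696 X promoter peaks, of which 0 passed (upper limit 0.217%), and that of replicate 2 held 1646, of which 1 passed (0.0608%). On the autosomes 19 of 8325 (0.228%) and 17 of 8671 (0.196%) promoter peaks passed in the own lists of replicates 1 and 2. Apart from T13C5.6 at replicate 2, none of the 10 thus passed in a replicate's own list. An own-list IDR rests on 1 replicate and is not the same measure as the IDR of the list from both. Of all ranked peaks, 176 and 173 passed in the own lists of replicates 1 and 2, against 704 in the list from both. Support was also uneven: the aexr-1 peak had an own-list IDR of 0.811 in replicate 1 and 0.0300 in replicate 2, and in the ranked list behind the conservative list aexr-1, C03A3.2 and kin-20 had IDRs of 0.0771, 0.0110 and 0.0103 and did not pass. The ranked list behind the conservative list pairs 2 peak sets, whose signals equalled those of replicates 1 and 2 at each of the 10 sites. Over its 3268 X promoter peaks the paired signals of the replicates had a Spearman correlation of 0.247 and a Pearson correlation of 0.281. Over 17137 autosomal promoter peaks these were 0.257 and 0.347. The correlations are given as a description of peaks that share 2 libraries.

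**Figure D3:**
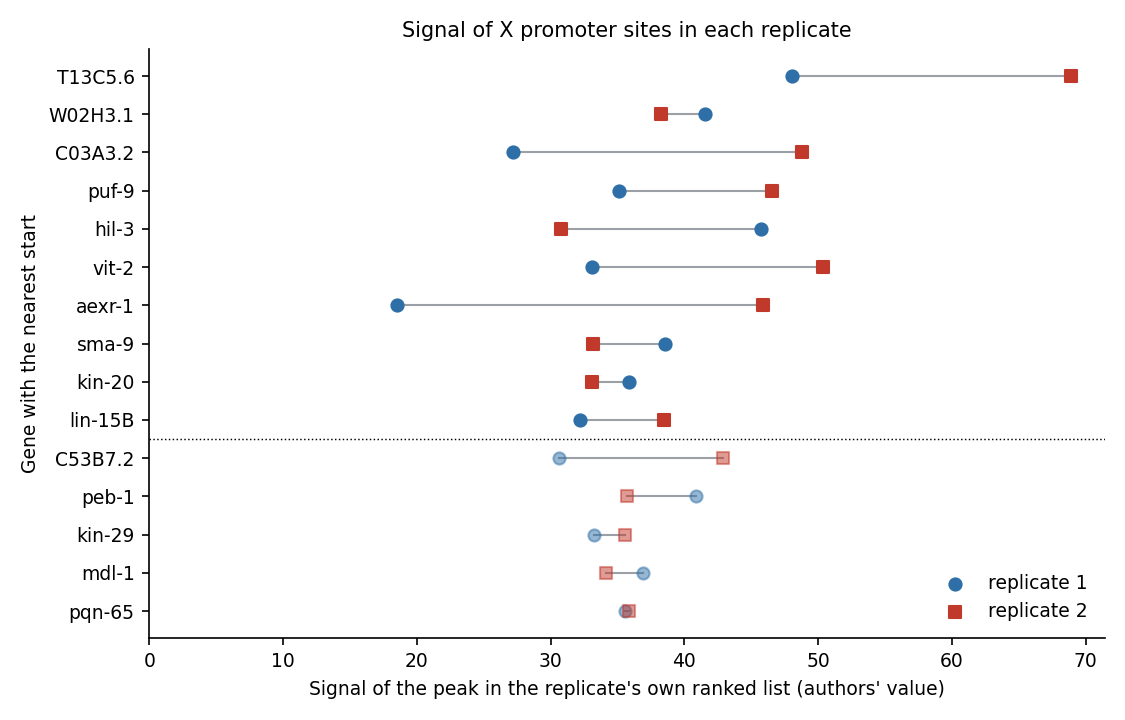
Signal of each X promoter site in the own ranked list of replicate 1 (blue circles) and replicate 2 (red squares), joined by a line. Above the dotted line are the 10 passing sites, with aexr-1 furthest apart (18.5 and 45.9); under it are 5 sites of the conservative list alone, pale, between 30.6 and 42.9.

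The authors' conservative list held 12 X promoter peaks, of which 7 were among the 10. The sites of C03A3.2, aexr-1 and kin-20 were missing from it. The 5 others lay upstream of C53B7.2, peb-1, kin-29, mdl-1 and pqn-65, with signals of 72.9, 71.9, 69.6, 64.0 and 57.7. Their IDR in the main ranked list ran from 0.0106 at peb-1 to 0.0414 at C53B7.2, so none passed there. In replicates 1 and 2 the C53B7.2 peak had signals of 30.6 and 42.9, that of peb-1 40.9 and 35.7, and that of pqn-65 35.6 and 35.8. peb-1 encodes a DNA-binding protein of the pharynx, kin-29 a salt-inducible kinase family member of chemosensory signalling and body size, and mdl-1 a Mad-like partner of Max. Taking both lists, 15 X promoters had a site in either.

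The threshold cut through a crowd of like peaks. Within 0.005 of the IDR threshold, 6 passing peaks lay just inside, from puf-9 (0.00649) to kin-20 (0.00942), and 8 lay just outside. Those outside were C44C10.15 (0.0103), peb-1 (0.0106), pqn-65 (0.0107), epn-1 (0.0113), C56E10.3 (0.0113), tsct-1 (0.0115), ins-39 (0.0120) and kin-29 (0.0128). Of these 8, tsct-1 had the highest signal, 71.9, and C44C10.15 the lowest, 45.2. The strongest X promoter peak that did not pass was that of C53B7.2, with a signal of 72.9.

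Of the 10 passing sites, 8 lay upstream of their starts (80%, 44.4 to 97.5), all between 144 and 391 bases, and those of hil-3 and vit-2 lay downstream, giving a median of -242 bases. The window itself has 500 of its bases upstream and 200 downstream, and 65.8% of the X promoter peaks that did not pass and 68.6% of the passing autosomal ones were upstream, both within the interval of the 10. The band from 100 to 400 bases upstream held the same 8, against 39.2% of the X promoter peaks that did not pass, 47.1% of passing and 37.0% of other autosomal promoter peaks. Its limits enclose the 8 sites closely, so its share is a description only. The median offset was -106 bases over all X promoter peaks and -91 over the autosomal ones. No passing X site lay within reach of starts on both strands (0 of 10, upper limit 30.8%). Such divergent promoters were 1.51% of all X promoter peaks, 5.46% of autosomal promoter peaks and 17.4% of passing autosomal ones (21 of 121).

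**Figure D4:**
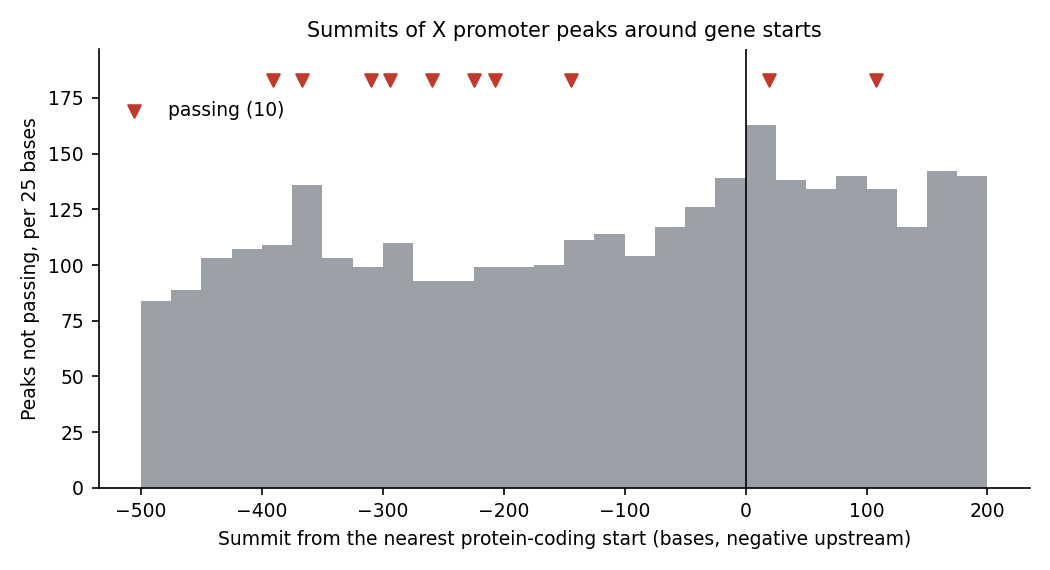
Distance of the summit from the nearest protein-coding start (x axis, bases, negative upstream) for the 3243 X promoter peaks that did not pass (grey, count per 25 bases) and the 10 that passed (red triangles). The grey peaks fill the whole window, while 8 triangles lie from 144 to 391 bases upstream and the other 2 lie 19 and 108 bases after the start.

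Within 1000 bases of each of the 10 starts there were 1 to 3 other ranked peaks (median 2) and no other passing one. The X chromosome as a whole held 23255 ranked peaks over 17718942 bases, so this number of neighbours is not shown to be particular to these sites. The highest of these other signals ranged from 16.8 at kin-20 to 50.7 at lin-15B. Even at lin-15B the passing peak was the strongest nearby. With 0.624% of all ranked peaks on X passing, so few neighbours would seldom hold another passing peak. The 10 peaks also had signals of 64.6 or more, against a median of 23.5 for all ranked peaks, so weaker neighbours say little. The sites were spread along the chromosome, with 2 passing peaks in the left, 6 in the middle and 2 in the right of 3 equal parts of X, which held 1036, 1162 and 1055 promoter peaks with median signals of 24.4, 24.3 and 24.2.

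**Figure D5:**
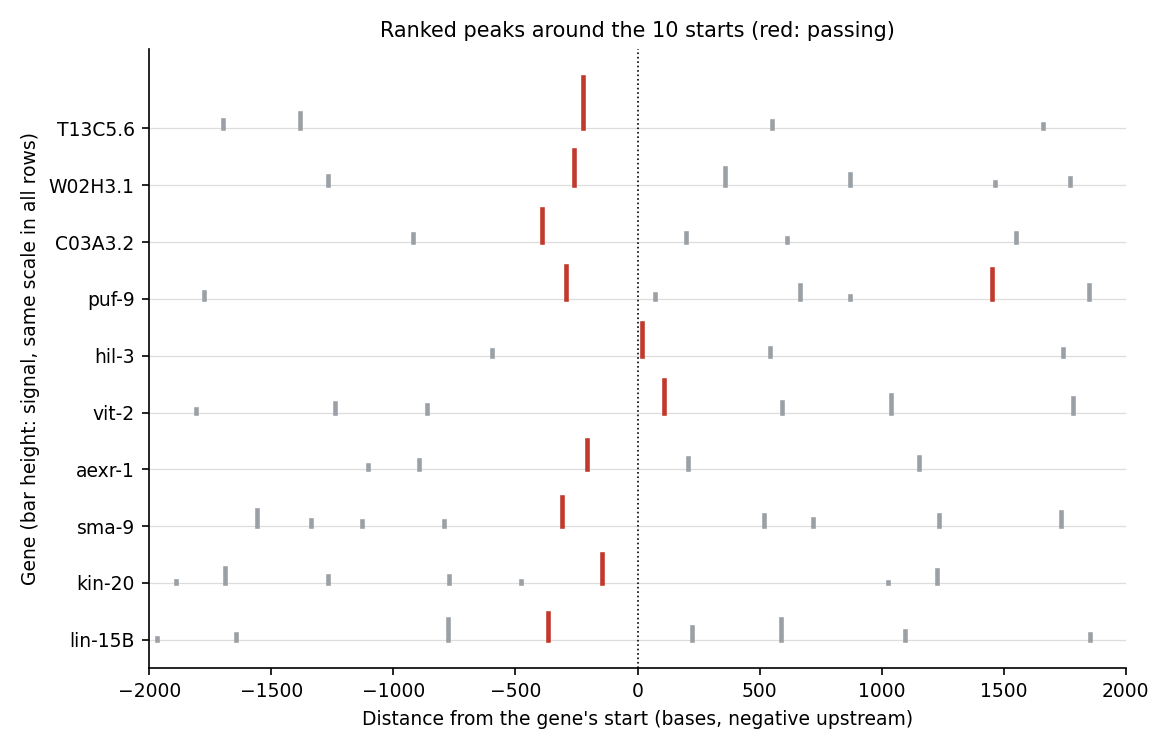
Ranked peaks within 2000 bases of the start of each of the 10 genes (x axis, bases from the start along the gene's direction), with bar height proportional to signal on the same scale in every row. Passing peaks are red; puf-9 has another at 1454 bases, and the other 9 genes have 1 each.

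By annotation, the summits lay within non-coding RNA genes at T13C5.6, puf-9 and aexr-1, in coding exons at vit-2 and sma-9, in the hil-3 5′ UTR, in an intron at W02H3.1 and in intergenic sequence at C03A3.2, kin-20 and lin-15B. Genes of the general non-coding RNA class thus held 3 of 10 passing X summits (30%, 6.67 to 65.2), against 4.16% of the other X promoter peaks (3.50 to 4.91), 6.61% of passing autosomal ones (2.90 to 12.6) and 1.23% of other autosomal ones. This class was not among those the rule left out, and counting it was decided after the sites were seen. Reads from a protein-coding promoter and from such a gene at the same place cannot be told apart.

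The passing sites were rich in G and C. Over 200 bases around the summit the median GC content was 49% (range 39.5 to 57, highest at vit-2 and lin-15B), against 38.5% for all X promoter peaks, 44.5% for passing and 37.5% for all autosomal promoter peaks. GC content moves with passing on the autosomes too, and its part in the result was not tested. Masked repeats covered a median of 5.25% of the passing X windows, against 19.5% of all X promoter windows, 20% of the passing autosomal ones and 24.5% of all autosomal ones, and 94.5% of X promoter windows were wholly unique, against 86.5% of autosomal ones.

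Of 14 motifs sought on either strand within these 200 bases, 5 occurred at passing X sites. CGATA, contained in the site of the fly proteins DREF and BEAF, occurred at aexr-1 and lin-15B (20%, against 19.6% of the X promoter peaks that did not pass). TGATAA, a site of GATA factors such as those of the intestine, occurred at W02H3.1 and puf-9 (20% against 17.9%). These shares were near those of the ranked list. CACGTG, an E-box, occurred at vit-2 only (10% against 3.05%). It was at 7.44% of passing and 4.62% of other autosomal promoter peaks, and 1 site is too few to judge its share. The TATA box (TATAAA) occurred at hil-3 only (10% against 18.7%), and a run of 8 T at aexr-1 only (10% against 18.2%). TATCGATA, the longer DREF site, which contains CGATA, was at 0 of the 10 and at 0.154% of the X promoter peaks that did not pass. TGTCGCGA, a site of the human BED protein ZBED1, was at 0 and 0.123%, and GCGCAGGG, the core of the dosage compensation recruitment motif, at 0 and 0.154%. Motifs this rare in the ranked list cannot be judged from 10 sites. GAANNTTC, part of the heat shock element, was at 0 of 10, 9.31% of other X promoter peaks, 20.7% of passing and 13.3% of other autosomal promoter peaks. The remaining 5 were at 0 of the 10 as well, and were rare in the X promoter peaks that did not pass. Their shares there were 2.07% for GAGAGAGA, 2.96% for the site GTAAACA of the forkhead factor DAF-16, 0.555% for the cyclic AMP response element TGACGTCA, 2.22% for the AP-1 site TGACTCA and 0.925% for the E2F-type site TTTCCCGC.

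The T13C5.6 site held GTTCNANNC, a short form of the internal promoter element (B box) of tRNA genes, which was looked for after its sequence was seen. The match lay at chrX:6207900-6207908, centred 8 bases from the summit. These letters were present in 588 of 612 annotated tRNA genes (96.1%), at 1 of the 10 passing X sites, and at 7.59% of other X promoter peaks, 9.92% of passing and 7.05% of other autosomal ones. No tRNA gene is annotated within 200 bases of this summit, and a match of this length is a description of the letters only. Whether the site marks an unannotated tRNA-like gene, a class the rule leaves out, was not tested, so its place among protein-coding promoter peaks is by annotation alone. Without it, 9 X promoter peaks pass.

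Gene groups were described by the highest signal among the promoter peaks of each X-linked gene, whose median over all X-linked genes with a peak was 28.4. Genes of sex determination and dosage compensation had 0 of 7 members passing. Their highest signals were 48.9 at sdc-1, 45.2 at ceh-39, 42.6 at sdc-2, 38.5 at fox-1, 23.6 at xol-1 and 14.7 at dpy-22, with no ranked promoter peak at sex-1. Their median was 40.5, and no member reached the weakest passing signal of 64.6. Medians of small lists varied, with 41.9 for innexins (6 genes), 40.7 for RNA processing and translation (4 genes with a peak) and 37.4 for mitochondrial respiration (5), so the value is not particular to this list. Wnt, Notch, TGF-beta and EGF signalling had 2 of 14 passing, lin-15B and sma-9, and chromatin regulators 2 of 22, hil-3 and lin-15B. Among the other chromatin regulators the highest were set-30, a SET domain gene, with 60.4, and the histone H4 gene his-38, with 59.5 and a window that was 41.8% unique. Vitellogenins had 1 of 5 passing. The other 16 lists, from cuticle collagens (30 genes, median 27.1) and neuropeptides (35, 30.5) to homeobox genes (25, 32.0) and chemoreceptors (34, 22.5), had 0 passing. At a background of 0.366% of X-linked genes, most lists of this size would hold none, so these zeros say little. The pair of X-linked ribosomal protein genes had a median of 62.8 and did not pass.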

How the data were processed

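BED-1 ChIP-seq peaks of 2 biological replicates, per the labels, were taken as deposited, with 1 group and no comparison between conditions. The authors deposited ranked lists with a signal per peak and the −log10 of its IDR, and shorter final lists. The signal's scale, the aligner and the peak caller are not stated in the labels or files. The lists give no read counts, so the depth is unknown. Peaks were called per sample and on both replicates together. Starts came from Ensembl release 115 on WBcel235 (ce11), sequences and products from RefSeq on the same assembly; coordinates are 1-based. Counting used Python 3.11.15 with pandas 2.3.3, numpy 2.4.6, scipy 1.17.1 and matplotlib 3.10.9, and the promoter rule was tested on simulated data. Passing means an IDR at or under 0.01. The genes named are all X promoter peaks in the final list and those within 0.005 of the threshold; members of the lists and peaks of the conservative list were named besides. Sequences are those of the 4 highest signals and of sites with a motif, at most 6. The peaks, genes, lists and motifs were chosen with earlier results of these data known. No test was run; intervals are exact and cover the counting of peaks only. Columns of per-sample values left unused numbered 0.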

Additional observations from a re-analysis of the deposited data

How the results depend on the processing

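Over 13 alternatives, 58 of 78 recomputed values stayed within their main interval or 1.5 times the main count, and 20 did not. Of the 58, 9 could not change, since another threshold or list leaves the median signal, divergent share and median distance as they are, so 49 of the 69 values that could change stayed. The percent passing was lower for X than for autosomal promoter peaks in 12 of the 13. These alternatives reuse largely the same peaks, and some had only 0 or 1 passing X peak, so the 12 are not separate support. The exception was an IDR of 0.05, with 100 X promoter peaks passing, 3.07% of X and 2.82% of autosomal promoter peaks. At an IDR of 0.001 the values were 1, 0.0307% and 0.112%. With promoters from 250 bases upstream to 100 downstream 4 X peaks passed (T13C5.6, hil-3, aexr-1 and kin-20), the divergent share was 0.765% and the median distance was -51 bases; with 1000 bases upstream and 200 downstream the latter were 3.20% and -327.5 bases. Leaving out a replicate, by the other's own ranked list, gave 0 to 1 passing X promoter peaks, 0% to 0.0608% of X and 0.196% to 0.228% of autosomal promoter peaks, and median signals of 17.1 to 18.6. Merging overlapping peaks gave a median signal of 25.7. The outermost starts alone dropped W02H3.1 and sma-9 (8 peaks), unique windows alone dropped T13C5.6 (9), and without the non-coding RNA exclusion 14 passed. The cause of these changes was not tested beyond the alternative's own construction. No paired analysis was possible because there is only 1 group. Without read depth, the detection limit of a weak promoter site is unknown.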
